A study of Mus musculus with 6 samples.

Results

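Sox7, Sox17 and Sox18, which form the SoxF group of transcription factors, and Sox4 and Sox11, which belong to the SoxC group, were followed across 3 levels of Dll4 in endothelial cells of the embryonic mouse heart. The 5 genes were taken by symbol from a table of 41214 genes, and all 5 passed the filter on low counts that left 10952 genes for testing. Tamoxifen was given at E13.5 (embryonic day) and cells positive for CD31 and for green fluorescence were sorted at E14.5. The groups are called wt, het and KO and have 2 libraries each. All groups, controls included, received tamoxifen and carry the transgene Pdgfb-iCreERT2-IRES-EGFP, in which the Pdgfb promoter, active in endothelium, drives an inducible Cre recombinase and green fluorescent protein. The wt embryos came from transgenic mice crossed with wildtype females and kept 2 intact Dll4 alleles. The het embryos came from Dll4 flox/flox transgenic mice crossed with wildtype females, which leaves 1 intact allele after recombination, and the KO embryos from the same mice crossed with Dll4 flox/flox females, which leaves 0. The loss is thus conditional and limited to cells in which the Pdgfb promoter is active, although the labels give the genotypes as Dll4+/- and Dll4-/-. Hearts came from several litters, the labels do not say which hearts made which library, and p-values measure only the spread between these libraries.

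Sox proteins bind DNA through an HMG box, a domain that bends the double helix. In endothelium the SoxF factors act partly in place of one another in vessel formation and arterial specification, Sox17 being most tied to arteries and Sox18 to the onset of lymphatic differentiation, and they bind enhancers of Notch pathway genes including Dll4 and Notch1. The SoxC factors Sox4 and Sox11, with their relative Sox12, are known from progenitor cells of many tissues, and loss of Sox4 disturbs formation of the heart's outflow tract and valves.

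The genes lie on 5 chromosomes of GRCm38. Sox7 (ENSMUSG00000063060) is at chr14:63943673-63950732 on the plus strand. The others are on the minus strand, Sox17 (ENSMUSG00000025902) at chr1:4490931-4497354, Sox18 (ENSMUSG00000046470) at chr2:181669836-181671640, Sox4 (ENSMUSG00000076431) at chr13:28948919-28953713 and Sox11 (ENSMUSG00000063632) at chr12:27334264-27342574. Sox4 and Sox11 each consist of 1 exon. The 60 coding bases that Sox7, Sox18, Sox4 and Sox11 share best, near the end of the HMG box, show how far reads could be confused between them. They are given below from GENCODE transcripts, 5′ to 3′, with the 43 bases that are the same in these 4 members in capitals, and Sox12 is added for the SoxC group.
Sox7: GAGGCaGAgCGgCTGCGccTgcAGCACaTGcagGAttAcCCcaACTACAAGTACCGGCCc
Sox18: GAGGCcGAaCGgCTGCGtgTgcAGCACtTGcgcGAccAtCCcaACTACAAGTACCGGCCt
Sox4: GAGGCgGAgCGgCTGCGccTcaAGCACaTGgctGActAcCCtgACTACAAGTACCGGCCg
Sox11: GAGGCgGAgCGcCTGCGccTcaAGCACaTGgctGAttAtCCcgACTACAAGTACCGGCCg
Sox12: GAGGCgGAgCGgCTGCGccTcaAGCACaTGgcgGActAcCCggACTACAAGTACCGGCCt
In this stretch Sox4 and Sox11 had 56 of 60 bases in common, Sox7 and Sox18 had 49, and Sox18 and Sox11 had 45. The longest identical run between whole transcripts of 2 of these members was 48 bases, for Sox4 and Sox11, and between 16 and 29 bases for every other pair of them. The deposited estimates of Sox7, Sox17, Sox18 and Sox11 were whole numbers in all 6 libraries. Sox4 had a fraction in 3 libraries, and there its count and that of Gm26735, a long noncoding RNA gene annotated over it on the other strand, added up to whole numbers (573, 336 and 867). Gm26735 took at most 1.04% of such a sum, although the libraries keep no strand and reads of this pair cannot be told apart. Sox17 is overlapped by Gm37587 on the plus strand, for which the deposited data hold no counts. The whole-number counts of Sox17 therefore say nothing about reads from that gene.

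The libraries held between 1537894 and 6501789 counts, the KO libraries the most. Dll4 stood at 196 and 183 CPM (counts relative to the library total after scaling between libraries by the TMM method) in wt, 81.2 and 85.9 in het and 19.4 and 13.7 in KO, in the order of the labelled genotypes. The 7 endothelial markers were all detected, with a summed level of 4971 to 5336 CPM in wt, 4751 to 4890 in het and 4046 to 4241 in KO. In KO against wt, Cdh5, Emcn and Erg of this list were called lower and Kdr and Tek higher. Without Cdh5, singled out after its values were seen, the other 6 summed to 3043 to 3355 CPM in wt, 2943 to 2980 in het and 3665 to 3820 in KO. The KO libraries differed in makeup from the others, since Lars2, which encodes the mitochondrial leucyl-tRNA synthetase, took 0.057% and 0.061% of their counts but 16.3% to 17.1% of those of the other 4. No preparation dates are in the labels, and an effect of preparing KO apart from the rest cannot be told apart from that of genotype.

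Per length, Sox18 and Sox7 made up most of the SoxF message. In wt the level was 221 ± 9.86 CPM per kilobase of exon for Sox18, 142 ± 18.9 for Sox7, 47.2 ± 4.81 for Sox4, 28.0 ± 2.05 for Sox17 and 10.4 ± 2.02 for Sox11 (SD, n = 2), and no neighbours in this order overlapped. Sox18 supplied 53.6% and 59.4% of the summed SoxF level in the wt libraries, 59.6% and 62.4% in het and 62.3% and 61.5% in KO. Sox17 supplied between 5.86% and 7.37% in the 6 libraries. With the length of the longest transcript of Sox17, its share was between 8.39% and 10.5%, and that of Sox18 between 51.8% and 60.8%. Within SoxC, Sox4 supplied between 78.3% and 84.8% of the sum of Sox4 and Sox11. The order of Sox17 and Sox4 is the least certain, because Sox17 has 8 annotated transcripts, and with the length of its longest transcript (3242 bases in place of 4772) its level was 41.2 ± 3.02 in wt and 31.1 ± 3.04 in KO, the latter above the 23.3 ± 0.175 of Sox4.

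KO was set against wt to see what changes when both Dll4 alleles are lost. Sox4 and Sox11 fell more than 2-fold, Sox7 and Sox17 fell by a smaller amount, and Sox18 did not pass the test. Thus 4 of the 5 members were called lower at an adjusted p under 0.05 and none higher, where 17.3% of all tested genes were called lower, 14.7% higher and 32.0% in either direction. In those 4 both KO libraries lay below both wt libraries, which held for 34.5% of all tested genes, while 33.2% had both KO libraries above. The members' median log2 fold change was -0.43, beside -0.02 over all tested genes. In bulk RNA, fewer cells of a type and less RNA per cell cannot be told apart.

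Sox4, the SoxC factor with the highest level here, stood at 243 and 210 CPM in wt, 203 and 174 in het and 112 and 111 in KO. Both KO libraries were far below the other 4 and almost equal to each other. The log2 fold change in KO against wt was -1.02 ± 0.12 (SE), a 2.03-fold fall with a 95% interval of -1.27 to -0.77 and edgeR adjusted p = 1.17e-06. Against het, Sox4 was 1.67-fold lower in KO (log2 fold change -0.74 ± 0.12, edgeR adjusted p = 6.38e-05).

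Sox11, a SoxC factor best known from developing neurons, had 98.5 and 74.7 CPM in wt, 76.2 and 83.8 in het and 34.9 and 37.2 in KO. The wt and het libraries overlapped, and both KO libraries lay at less than the lowest of them. Sox11 fell 2.43-fold in KO against wt (log2 fold change -1.28 ± 0.16, 95% interval -1.62 to -0.94, edgeR adjusted p = 4.56e-06) and 2.23-fold in KO against het (-1.16 ± 0.16, edgeR adjusted p = 1.61e-05). The falls of Sox4 and Sox11 in both comparisons passed the test under all 16 processing alternatives.

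**Figure D1:**
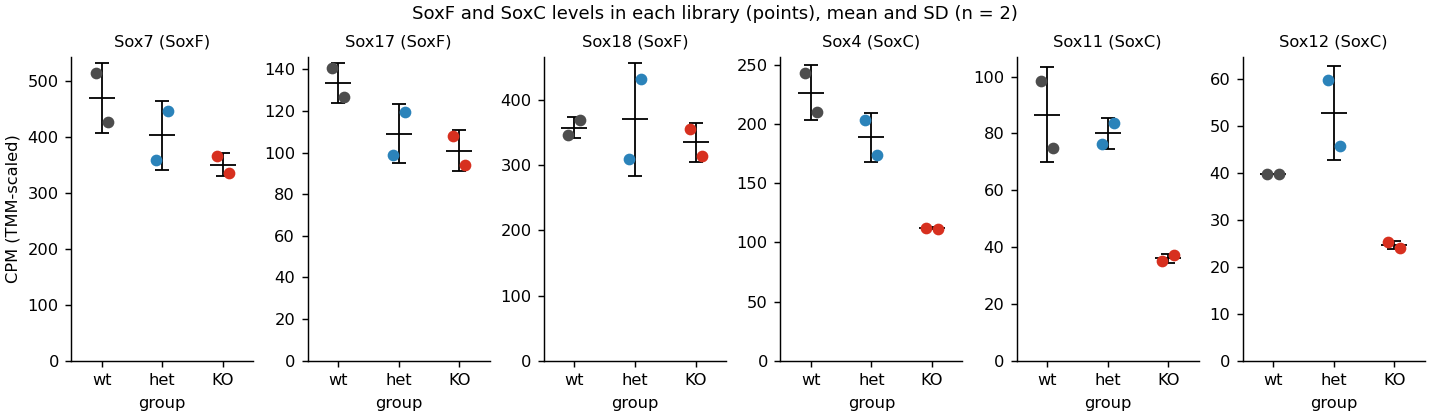
Levels of the SoxF and SoxC genes in CPM (vertical axes, starting at 0) by group, with each library as a point and the mean ± SD of n = 2 in black. Sox4, Sox11 and Sox12 have both KO libraries below the other 4, while the 3 groups of Sox18 overlap.

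Sox12, the remaining SoxC gene, was not a chosen member but moved likewise in KO. It had 39.8 and 39.9 CPM in wt, 59.8 and 45.7 in het and 25.2 and 24.1 in KO, so KO was lowest and het highest. It fell 1.61-fold in KO against wt (log2 fold change -0.69 ± 0.20, edgeR adjusted p = 0.0110) and 2.10-fold in KO against het (-1.07 ± 0.19, edgeR adjusted p = 2.33e-04). Its call against wt was lost without wt replicate 4 (adjusted p = 0.113), wt replicate 5 (0.0654) or KO replicate 2 (0.0527), and also with DESeq2, with the GC trend removed or with scaling by library size only.

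Sox7, the SoxF gene with the highest count, stood at 514 and 426 CPM in wt, 359 and 447 in het and 365 and 336 in KO. It was 1.34-fold lower in KO than in wt (log2 fold change -0.43 ± 0.11, 95% interval -0.67 to -0.18, edgeR adjusted p = 0.00769), and the het libraries spanned the gap between the groups. With wt replicate 4, the higher of the wt libraries, left out, it stood at -0.24 with adjusted p = 0.266, and without KO replicate 2 it was -0.36 with adjusted p = 0.0889.

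Sox17, the SoxF gene tied to arteries, had 140 and 127 CPM in wt, 99.0 and 119 in het and 108 and 94.0 in KO. Both wt libraries lay above the other 4, and het and KO overlapped. It was 1.32-fold lower in KO than in wt (log2 fold change -0.41 ± 0.13, 95% interval -0.69 to -0.12, edgeR adjusted p = 0.0253). The test was no longer passed without wt replicate 4 (-0.28, adjusted p = 0.317), wt replicate 5 (-0.47, 0.0625) or KO replicate 2 (-0.30, 0.214), with DESeq2 (adjusted p = 0.106) and after thinning to equal totals (0.0627).

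Sox18, mutated in the ragged mouse and known for its part in lymphatic development, had 346 and 369 CPM in wt, 309 and 432 in het and 356 and 314 in KO. All groups overlapped, and the highest and the lowest value were both in het. The log2 fold change in KO against wt was -0.09 ± 0.13 (edgeR adjusted p = 0.649), and its 95% interval of -0.38 to 0.19 does not reach the size of the falls of Sox4 and Sox11. Over the 16 alternatives it ran from -0.18 to 0.27, and 0 of them gave a call.

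**Figure D2:**
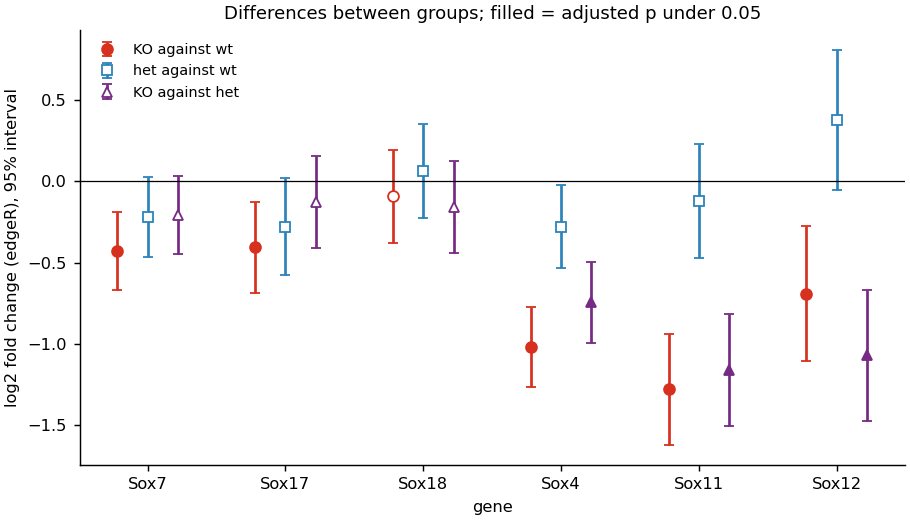
Log2 fold changes (vertical axis) of the SoxF and SoxC genes in 3 comparisons, with 95% intervals from edgeR as bars and filled symbols where the adjusted p was under 0.05. Sox4, Sox11 and Sox12 have filled symbols in both comparisons that involve KO, Sox7 and Sox17 only in KO against wt, and no gene in het against wt.

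Scaling between libraries bears on these small SoxF differences, because the KO libraries have the other makeup described above. Scaled by library size only, the median over all genes in KO against wt, on the log2 scale, moved from -0.02 to 0.35. Sox7 and Sox17 then stood at -0.06 and -0.04 and lost their calls (adjusted p = 0.689 and 0.822), and Sox18 stood at 0.27, while relative to that median they stood at -0.41, -0.39 and -0.07. Sox4 and Sox11 kept their calls there at -0.66 and -0.92. With Lars2, 7SL, 7SK and mitochondrial genes left out of the table the count remained 4 of 5.

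Ratios of counts between members of the same library need no scaling. Sox4 counts were 0.308 and 0.331 of Sox7 counts in KO and between 0.390 and 0.566 in the other 4 libraries. Sox11 counts were 0.0981 and 0.118 of Sox18 counts in KO and between 0.194 and 0.284 elsewhere. For all 6 ratios of a SoxC member to a SoxF member, both KO libraries lay below the other 4. These ratios reuse the same members, whose changes are given above. How often ratios of other genes separate KO was not counted. Within SoxC, Sox11 over Sox4 was also lower in KO, at 0.311 and 0.334, against 0.355 to 0.481 in the other 4 libraries. Among the SoxF genes themselves, Sox17 over Sox7 stayed between 0.267 and 0.297 in all 6 libraries and did not separate KO. These ratios are given as a description, with no test.

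**Figure D3:**
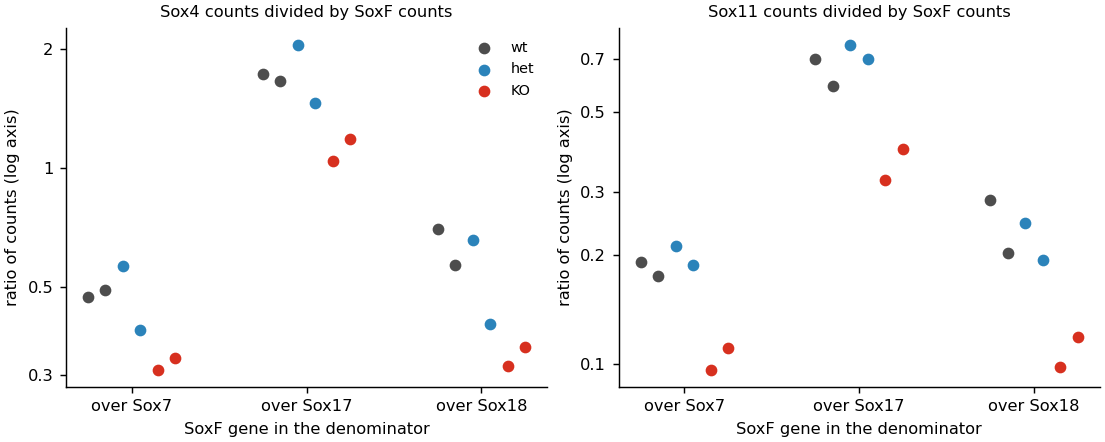
Counts of Sox4 (left) and Sox11 (right) divided by the counts of each SoxF gene in the same library, on log axes, with 1 point per library coloured by group. In each of the 6 columns both KO points lie lowest.

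Loss of 1 allele was examined by setting het against wt. By edgeR 0 of the 5 members were called, against 0.173% of all tested genes in either direction, 0.128% higher and 0.0457% lower, and DESeq2 and limma-voom also called 0. At an unadjusted p under 0.05 there was 1 of 5, Sox4, where 8.15% of all tested genes had such a p and 3.83% were lower with it. The log2 fold change of Sox4 was -0.28 ± 0.12 with a 95% interval of -0.53 to -0.02 and edgeR adjusted p = 0.548. Both het libraries were below both wt libraries for Sox4 and Sox17, where 18.8% of all tested genes showed this and 19.2% the opposite. The intervals ran from -0.58 to 0.02 for Sox17, -0.46 to 0.03 for Sox7, -0.23 to 0.36 for Sox18 and -0.47 to 0.23 for Sox11, so falls as large as those of Sox4 and Sox11 in KO lie outside them. The comparisons of het and of KO with wt share the wt libraries.

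What loss of the second allele adds was read from KO against het, a comparison that shares the KO libraries with KO against wt. Sox4 and Sox11 were called lower, 2 of 5 members, where 17.2% of all tested genes were called lower, 13.9% higher and 31.2% in either direction. In both genes KO lay wholly below het, as it did in 33.0% of all tested genes, and it lay above het in 31.4%. Sox7 (log2 fold change -0.21 ± 0.12), Sox17 (-0.13 ± 0.14) and Sox18 (-0.16 ± 0.13) had edgeR adjusted p = 0.187, 0.529 and 0.417. Without het replicate 2, the het library with the lower SoxF levels, Sox7 and Sox18 were also called, at -0.34 (adjusted p = 0.0468) and -0.36 (0.0285).

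A further contrast set het against the point midway between the log2 levels of the other groups. Sox11 lay 0.52 ± 0.14 above the midpoint (edgeR adjusted p = 0.0211), that is, het was closer to wt than equal steps on the log2 scale give. An even step in CPM per allele, which lies somewhat above this midpoint, was not tested. Of all tested genes 7.81% were called above the midpoint, 3.68% below and 11.5% in either direction. Dll4 itself lay 0.57 ± 0.14 above the midpoint (edgeR adjusted p = 0.00911). Its call was lost with library size only (0.0703) and without wt replicate 4, wt replicate 5 or het replicate 3. Sox11 was the 1 member called. The call of Sox11 was lost without wt replicate 5, het replicate 2 or het replicate 3, with DESeq2 (adjusted p = 0.104) and with library size only (0.129). Sox12 lay 0.72 above the midpoint (edgeR adjusted p = 0.00788), a call lost without het replicate 2 (0.141). Sox4 lay 0.23 ± 0.10 above it (edgeR adjusted p = 0.171), and Sox7, Sox17 and Sox18 lay between -0.08 and 0.11 of it with edgeR adjusted p between 0.634 and 0.982.

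**Figure D4:**
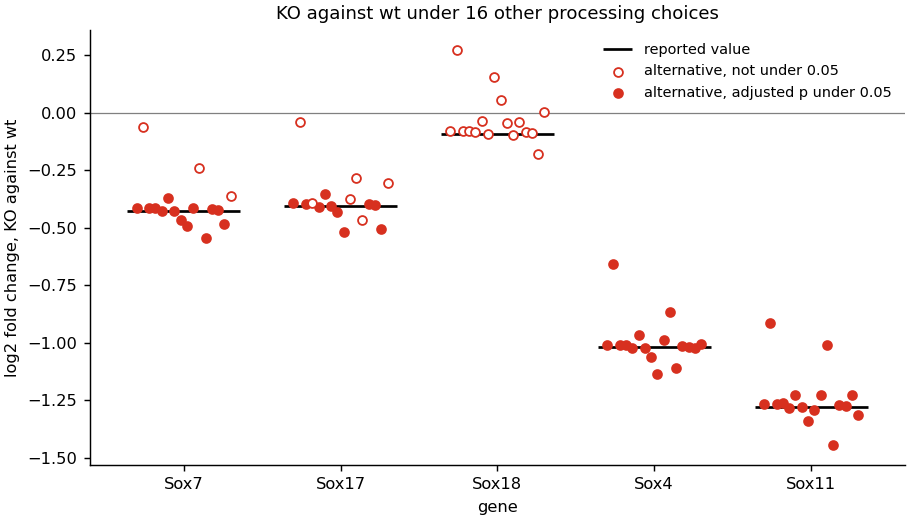
Log2 fold change in KO against wt (vertical axis) of each member as reported (black line) and under 16 other processing choices (points, filled where the adjusted p was under 0.05). Sox4 stays between -1.14 and -0.66 and Sox11 between -1.44 and -0.92 with every point filled, while Sox7 and Sox17 include open points and Sox18 has none filled.

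Markers of other cells that a sort of heart endothelium could admit also differed between groups in some lists, and their part in the SoxC values was not tested. Of 6 epicardial markers only Wt1 passed the filter, and the list's summed level was 107 to 109 CPM in wt, 105 to 124 in het and 72.1 to 76.5 in KO. Wt1 itself fell 1.41-fold in KO against wt, and the other 5 epicardial markers were at 6.96 CPM or less in every library. The neuronal and Schwann cell list summed to 27.8 to 30.4 CPM in wt, 16.4 to 18.1 in het and 11.8 to 15.9 in KO. Elavl3, a neuronal marker of this list, was at 0 in all libraries, and Stmn2 was the 1 gene called (lower in KO against wt). The cardiomyocyte list (7 genes) summed to 55.1 to 63.8 CPM in wt, 116 to 142 in het and 28.8 to 33.5 in KO, with 2 of its 4 tested genes called lower in KO against wt and 4 in KO against het. The mural cell and fibroblast list (8 genes) summed to 92.5 to 156 CPM in wt, 247 to 305 in het and 105 to 201 in KO. Of its 6 tested genes, Pdgfrb, at 0 and 0.633 CPM in wt, was called higher in KO against wt and Dcn lower (2.65-fold). In KO against het, Dcn (3.28-fold) and Postn (2.49-fold) were called lower. The macrophage list (6 genes) summed to 17.1 to 57.6 CPM in wt, 49.9 to 171 in het and 7.13 to 23.6 in KO. Of its 4 tested genes Cd68 was called lower in KO against wt (4.37-fold), and Cd68 (12.1-fold) and C1qa (11.4-fold) in KO against het. The endocardial list (4 genes) summed to 149 to 166 CPM in wt, 156 to 365 in het and 173 to 210 in KO, the highest in het replicate 2. The erythroid list (5 genes) summed to 121 to 410 CPM in wt, 118 to 373 in het and 168 to 214 in KO. In each of these 2 lists 0 genes were called in any comparison of 2 groups. Lymphatic markers (5 genes) summed to 272 to 285 CPM in wt, 256 to 286 in het and 386 to 426 in KO. Nearly all of this was Flt4, the VEGF-C receptor gene and the 1 gene of the list called, and the other 4, Prox1 included, together held 11.1 to 22.1 CPM in wt, 10.8 to 37.7 in het and 9.48 to 13.9 in KO.

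Of the 15 other Sox genes, 3 passed the filter. Besides Sox12 these were the SoxD genes Sox13, at 66.8 and 67.7 CPM in wt, 49.1 and 59.3 in het and 53.8 and 51.6 in KO, and Sox6, at 3.80 to 4.28, 1.42 to 5.23 and 1.36 to 1.43 CPM. Neither passed in any comparison (edgeR adjusted p from 0.0985 to 0.814 for Sox13 and from 0.129 to 0.981 for Sox6), although Sox13 was called lower in KO against wt with the length trend removed (adjusted p = 0.0254). The other 12 were at 2.85 CPM or less in every library, and 6 of them (Sry, Sox1, Sox2, Sox3, Sox14 and Sox15) had 0 counts throughout.

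Among 12 genes reported as SoxF targets in endothelium, 4 fell and 2 rose in KO against wt, with a median log2 fold change of -0.26 beside -0.02 over all tested genes. Of all tested genes 17.3% were called lower and 14.7% higher. Dll4, the deleted gene, is 1 of the 4. The others were Cdh5, which encodes VE-cadherin (1955 ± 37.5 CPM in wt, 401 ± 28.1 in KO), the receptor gene Notch1 (368 ± 53.5 and 130.5 ± 32.4) and Efnb2, the arterial ephrin gene (275 ± 1.94 and 138 ± 21.9). The VEGF receptor gene Kdr rose 1.35-fold and the semaphorin and VEGF coreceptor gene Nrp2 1.39-fold, and without wt replicate 5 neither was called (adjusted p = 0.0913 and 0.109, the latter 0.0503 without KO replicate 2). Notch4, Cldn5, Vcam1, Robo4, Nrp1 and Prox1 did not pass in KO against wt. Cldn5, a tight junction gene, stood at -0.57 with adjusted p = 0.00648 without KO replicate 2, and Notch4 was called lower with the length trend removed (0.0308) or only the 2 groups fitted (0.0447). In het against wt only Dll4 passed, a call lost without wt replicate 4 (adjusted p = 0.0859).

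Of 5 factors known to work with SoxF proteins, Mef2a rose 1.22-fold and Mef2c fell 1.27-fold in KO against wt (edgeR adjusted p = 0.0479 and 0.0322). Mef2a was also higher in KO than in het (edgeR adjusted p = 0.00495). Mef2a lost its call without wt replicate 5 (0.385) or either KO library (0.114 and 0.191), and also with DESeq2 (0.122), limma-voom (0.0583) or the GC trend removed (0.0562). Mef2c did not pass when wt replicate 4 (0.189), wt replicate 5 (0.167) or KO replicate 2 (0.331) was left out, with DESeq2 (0.119), with no filter, after thinning or with the length trend removed, and its sign turned with library size only. Rbpj, the DNA-binding partner of the Notch intracellular domain, had 41.5 and 43.0 CPM in wt, 53.4 and 51.3 in het and 33.2 and 33.1 in KO, and was called lower in KO against het alone (1.57-fold, edgeR adjusted p = 0.00666), a call lost with DESeq2 (0.0520), after thinning (0.0575) and with library size only (0.210). Mef2d and Ctnnb1 did not pass in any of the 3 comparisons, although Ctnnb1 was called lower in KO against wt with the length trend (adjusted p = 0.00675) or the GC trend (0.0434) removed and higher in KO against het with library size only (8.85e-04). Of 4 genes reported as SoxC targets, Tead2 and Ezh2 were tested. Tead2, a transcription factor of the Hippo pathway, stood at 118 and 123 CPM in wt, 118 and 104 in het and 49.4 and 53.8 in KO. It fell 2.34-fold in KO against wt (log2 fold change -1.22 ± 0.14, edgeR adjusted p = 8.72e-07), and in KO against het it was 2.14-fold lower. Ezh2, the methyltransferase of the Polycomb repressive complex, had a log2 fold change of -0.38 in KO against wt and did not pass (edgeR adjusted p = 0.0864), except with the length trend removed (0.0299).

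The promoters shown are those of Sox4 and Sox11, the members for which one was available. They are the 250 bases before the RefSeq start (GRCm38.p6, minus strand), chr13:28953700-28953949 for Sox4 and chr12:27342719-27342968 for Sox11, and the RefSeq promoter table matched these 2 of the 5 members. Capitals mark matches on either strand to TGGGAA, the core of the RBPJ site, and to CACGTG and CACGCG, the classes of site bound by Hes and Hey repressors.
Sox4: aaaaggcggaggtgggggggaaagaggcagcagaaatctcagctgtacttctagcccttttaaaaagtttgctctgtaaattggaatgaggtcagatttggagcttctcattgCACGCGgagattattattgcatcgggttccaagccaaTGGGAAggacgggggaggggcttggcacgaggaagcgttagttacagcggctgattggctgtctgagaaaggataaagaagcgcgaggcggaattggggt
Sox11: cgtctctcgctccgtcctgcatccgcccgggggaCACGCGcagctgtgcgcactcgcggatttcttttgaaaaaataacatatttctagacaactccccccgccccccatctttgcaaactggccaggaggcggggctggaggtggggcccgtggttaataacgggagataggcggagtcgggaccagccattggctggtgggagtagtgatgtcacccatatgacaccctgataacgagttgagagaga
TGGGAA begins 100 bases before the start of Sox4 and does not occur in the Sox11 window, and 21.6% of 32851 RefSeq promoter windows of this length hold it. CACGCG begins 137 bases before the start of Sox4 and 216 before that of Sox11, and 7.6% of windows hold it. CACGTG is in neither window and in 6.0% of all. The window of Sox12, which was also called lower in KO against wt and against het, holds no match to any of these sites. The matches in Sox4 and Sox11 are a description of the letters and not of binding.

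Likeness was measured as the root mean square difference between centred log2 CPM profiles over the 6 libraries, among 9164 other genes. Predicted genes, judged by their symbol or by lacking one, were left out of these. Sox7 and Sox17 differed by 0.0573, and 7 genes were nearer to Sox7 and 8 nearer to Sox17. Sox4 and Sox11 differed by 0.200, with 356 genes nearer to Sox4 and 170 nearer to Sox11. The genes nearest to Sox11 were Glul (0.0408), which encodes glutamine synthetase, the venous transcription factor gene Nr2f2 (0.0531) and Reep3 (0.0658). Nr2f2 had means of 54.2, 50.4 and 20.9 CPM in wt, het and KO. Nearest to Sox4 were Tlk1 (0.0644), Pdlim1 (0.0650) and Cald1 (0.0651), the last 2 being actin-associated. Nearest to Sox7 were Kifap3 (0.0336), Plagl2 (0.0339) and Dhcr7 (0.0364), to Sox17 Slc41a3 (0.0376), Lrrcc1 (0.0378) and Ptbp3 (0.0410), and to Sox18 Ccnyl1 (0.0375), Tia1 (0.0474) and Pnrc2 (0.0501).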

How the data were processed

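Endothelial RNA had been amplified with SMART-Seq v4 and made into Nextera XT libraries, which keep no strand, per the labels' protocols. The authors deposited 1 table of expected counts for the 6 libraries. CASAVA, cutadapt and RSEM with build GRCm38 are named in the submitters' processing notes, and their versions and settings are not given in the sources used here. RSEM divides reads shared by several genes. Symbols, positions and exon lengths came from GENCODE M21, which matched 97.9% of identifiers.

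Expected counts were rounded. In R 4.3.3, edgeR 4.0.16 was run on all 6 libraries in 1 fit with 3 residual degrees of freedom (filterByExpr, minimum count 10, TMM, robust quasi-likelihood F tests, two-sided). P-values were adjusted over 10952 genes by Benjamini and Hochberg's method with a threshold of 0.05, and every adjusted p is from this test unless another tool or setting is named. Standard errors and 95% intervals were derived from the fold change and F statistic, with the total degrees of freedom of the fit. These add to the 3 residual ones those borrowed from the spread over all tested genes. DESeq2 1.42.0, limma 3.58.1, other scalings, no filter, GC and length corrections (a smooth trend with 6 degrees of freedom), thinning and leaving out each library were alternatives. The procedure was also run on simulated counts with planted changes. The simulation left out the different makeup of the KO libraries and does not bear on it. The members, lists and naming rules were chosen with earlier results of these data known. All members and other tested Sox genes were named, called genes of the partner and target lists, and the 3 tested genes with average log2 CPM of at least 3 nearest to each member. Predicted genes were left out of the search for the nearest.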

Additional observations from a re-analysis of the deposited data

How the results depend on the processing

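The falls of Sox4 and Sox11 in KO against wt and against het kept direction and call under all 16 alternatives. The count of members called in KO against wt, 4 as reported, was 2 with library size only and between 2 and 4 when 1 library was left out, Sox7 and Sox17 being those lost. In KO against het the count of 2 was between 2 and 4 when 1 library was left out. In het against wt it was 0 under all 16 alternatives. Off the midpoint it was 1 as reported, 0 with library size only, 0 with DESeq2 and between 0 and 1 when 1 library was left out. Over all genes, 3509 were called in KO against wt (1610 higher, 1899 lower), between 2043 and 3815 when 1 library was left out, the fewest without wt replicate 4, and 3878 higher and 1034 lower with library size only. With library size only KO against het gave 3930 higher and 1016 lower, against 1524 and 1888. In het against wt 19 genes were called, 8 with limma-voom, 150 with no filter, 34 with the length trend removed, 29 after thinning, and between 2 (without wt replicate 4) and 76 (without het replicate 3) when 1 library was left out. Off the midpoint 1258 genes were called (855 higher, 403 lower), 2162 with library size only (559 higher, 1603 lower), 779 with DESeq2 and between 758 and 1153 when 1 library was left out. With library size only Mef2c stood at 0.0145 in KO against wt and Nrp1 at 0.35 in KO against het, both with the sign turned. The same alternatives for genes other than the members were added after the data were seen. No paired analysis was possible because the labels do not say which hearts made which library. The lowest counts of Sox17 and Sox11 were 139 and 107, both in het replicate 2, and after thinning to the smallest total Sox11 kept its call in KO against wt while Sox17 did not.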
